A study of Mus musculus with 8 samples.

Results

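The respiratory chain and ATP synthase are described here in left ventricular muscle of miR-100 overexpressing and wild type mice. Members were taken by gene symbol, as every array row annotated with a symbol that begins with Nduf, Uqcr, Atp5 or Cox plus a digit, or with Sdha, Sdhb, Sdhc, Sdhd, Cyc1 or Cycs. This gave 103 rows of 22206, with 1 row per gene and no use of measured values. Of these, 1 row shared every value with another array row, so its signal may not belong to its gene alone. By role they comprised 36 complex I subunits, 4 of complex II, 9 of complex III, cytochrome c, 19 of complex IV, 17 of complex V and 17 assembly and accessory factors.

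The study profiled 8 hearts, 1 per array, from male C57/BL6J mice of 8 weeks. The miR-100 group was 4 untreated mice with cardiac-specific overexpression of microRNA-100, and the wild type group was 4 untreated mice of the same strain. The labels name neither the promoter that drives the transgene nor the founder lines or litters. The design counts 4 mice a group, and the p-values reflect no more than the spread among these arrays. Each value is a log2 signal, so a difference of 1 is a doubling, and signals of different rows cannot be set against each other as amounts of RNA.

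Complexes I to IV pass electrons from NADH and succinate to oxygen and pump protons out of the mitochondrial matrix, except complex II, which pumps none. Complex V lets the protons back in and makes ATP, which heart muscle uses for each beat. Most subunits are encoded in the nucleus and some by mitochondrial DNA, and several subunits of complex IV, cytochrome c oxidase, exist as a heart and skeletal muscle form and a form made in most tissues.

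The microRNA that distinguishes the groups is shown with its seed (bases 2 to 8) in capitals, since the seed is the stretch that pairs with target messages. The sequences are from RefSeq on GRCm38.p6, at chr9:41531437-41531458 and chr9:41531471-41531492 on the plus strand. The labels do not say which arm was raised.
mmu-miR-100-5p: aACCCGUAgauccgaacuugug
mmu-miR-100-3p: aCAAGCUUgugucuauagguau

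The arrays correlated at 0.988 to 0.993 over all rows. The heart muscle markers were bright in both groups, with a summed signal of 22.09 to 22.13 in miR-100 hearts and 22.12 to 22.18 in wild type hearts (log2 of the sum over 10 genes). Wild type replicate 2 stood apart, with a first principal component score of -38.2, against -12.99 to -3.49 on the other wild type arrays. Among the miR-100 arrays, replicate 2 also stood apart, at 30.84 against 8.96 to 13.51 on the others. For some of the complexes and genes that moved without wild type replicate 2, values are given both ways.

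No respiratory chain gene passed the test between miR-100 and wild type hearts. The count was 0 of 103 rows at an adjusted p of 0.05 (limma, Benjamini-Hochberg over all rows), where 0.14% of the whole table passed, 0.0946% higher and 0.045% lower in miR-100 hearts. At an unadjusted p of 0.05 it was 2 of 103, both higher, against 7.73% of the table, 3.55% higher and 4.17% lower. These were Cox18 and Ndufaf8, a pair of assembly factors, and 0 of 86 subunits including cytochrome c were among them. Of the 103 rows, 46 had a difference above 0, 56 below and 1 at 0, with a median of -0.0175. The median over all rows was -0.015, and 53.0% of them lay below 0.

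The intervals around these differences were narrow for most of the chain. For 80 of the 103 rows the 95% confidence interval lay within 0.5 of 0 on the log2 scale, a 1.41-fold change, and 43.6% of all rows met the same bound. The median standard error was 0.147 for the chain and 0.173 for all rows. Differences of 0.2 or more in size were found in 10 rows, and the median size was 0.06 in the chain and 0.14 over all rows. Of the 103 rows, 4 had means within 0.5 of the highest value in the table, 19.93, where differences are compressed. These were Uqcrb, Cox7c, Atp5a1 and Atp5b. No member had a mean below the 25th percentile of row means, 4.17. Cox6b2 lay just above it, at 4.47 in miR-100 hearts and 4.29 in wild type hearts. Cox7b2 and Cox8c lay near or below the column medians of 5.70 to 5.74, so these dim rows say little.

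**Figure D1:**
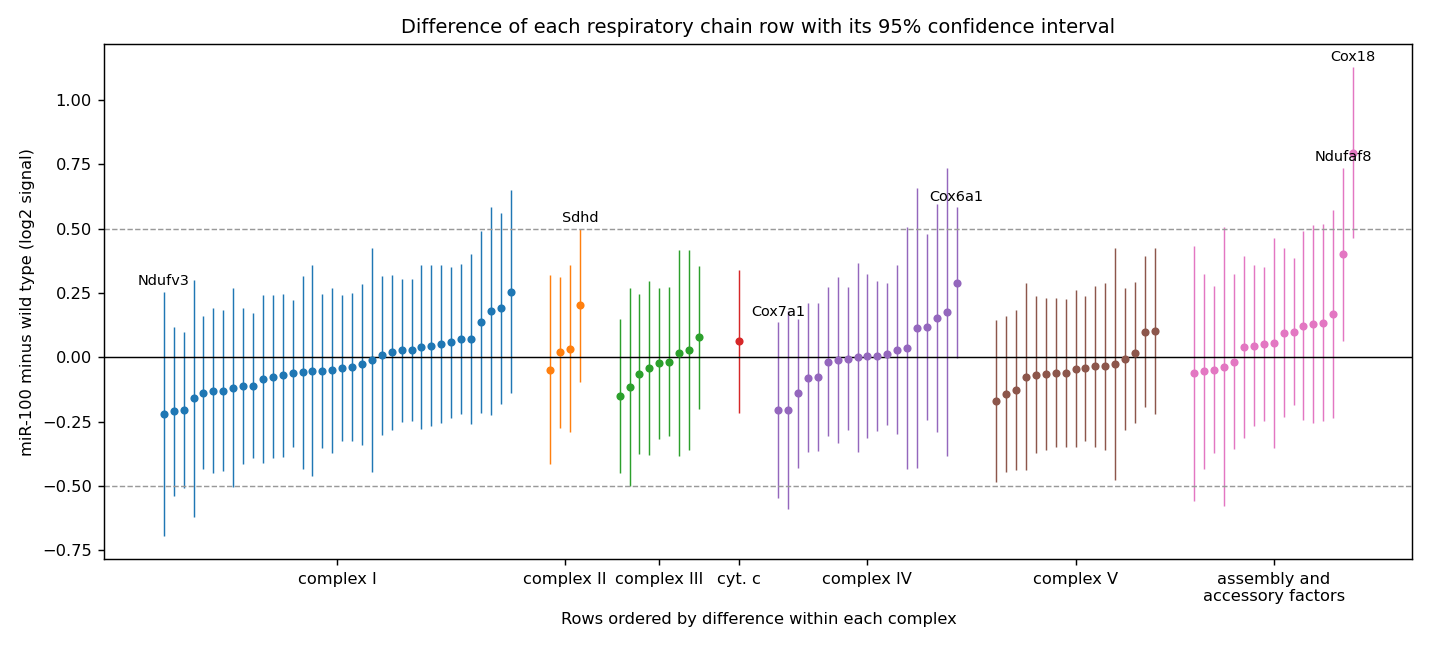
Difference of each of the 103 rows between miR-100 and wild type hearts (log2 signal, points) with its 95% confidence interval (lines), grouped by complex and ordered by size. Dashed lines stand at 0.5 and -0.5. The interval of Cox18 runs from 0.46 to 1.13 and that of Ndufaf8 from 0.06 to 0.74, and the other intervals include 0.

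Complex I takes electrons from NADH, and its 36 subunits had a median difference of -0.045, with 14 above 0 and 22 below, and -0.07 without wild type replicate 2. Ndufv1, which carries the NADH binding site, had 17.46 to 17.58 in miR-100 hearts and 17.42 to 17.51 in wild type hearts. It differed by 0.03 (95% confidence interval -0.25 to 0.31). Ndufs1, an iron-sulfur subunit of the arm that protrudes into the matrix, differed by 0.06 (-0.24 to 0.35). Ndufv1 and Ndufs1 were picked for their role after the values were seen. Their intervals bound any difference of these core subunits to well under a doubling.

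The widest differences of complex I were among accessory subunits. Ndufb2, an accessory subunit of the membrane arm, had 13.71, 13.43, 14.29 and 13.92 in miR-100 hearts and 13.75, 13.51, 13.62 and 13.45 in wild type hearts. The ranges overlapped, with the lowest value in a miR-100 heart, and the difference was 0.26 (-0.14 to 0.65, limma adjusted p = 0.814). Ndufb3, another accessory subunit of that arm, had 11.44, 11.56, 11.45 and 11.84 in miR-100 hearts and 11.98, 11.76, 11.58 and 11.81 in wild type hearts, a difference of -0.21 (limma adjusted p = 0.821).

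Ndufa5, an accessory subunit of the matrix arm, had 15.27, 15.57, 15.36 and 15.22 in miR-100 hearts and 15.51, 15.51, 15.55 and 15.67 in wild type hearts. Of the miR-100 arrays 3 lay below all wild type arrays and replicate 2 lay among them, with a difference of -0.21 (limma adjusted p = 0.797). Ndufv3, which sits beside the NADH binding subunits, had 9.08, 9.09, 8.76 and 9.10 in miR-100 hearts and 9.32, 8.50, 9.45 and 9.64 in wild type hearts. Its wild type replicate 2 was the lowest of the 8 values. The difference was -0.22 over all arrays and -0.46 without that array (limma adjusted p = 0.884 and 0.443). Ndufb4 and its near-identical copy Ndufb4b differed by -0.11 and -0.07, and the probes may not tell their transcripts apart.

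Complex II, succinate dehydrogenase, is also an enzyme of the tricarboxylic acid cycle and has no subunit from mitochondrial DNA. Sdha carries the flavin, Sdhb the iron-sulfur clusters, and Sdhc and Sdhd anchor the enzyme in the membrane. Sdhd had 15.41, 15.64, 15.65 and 15.45 in miR-100 hearts and 15.33, 15.47, 15.25 and 15.29 in wild type hearts. Wild type replicate 2 lay above miR-100 replicates 1 and 4, so the groups overlapped, and the difference was 0.20 (95% confidence interval -0.10 to 0.50, limma adjusted p = 0.796). Sdha, Sdhb and Sdhc differed by 0.03, 0.02 and -0.05, each with an interval inside 0.5 of 0.

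Complex III hands electrons from coenzyme Q to cytochrome c, and 6 of its 9 rows lay below 0, with a median of -0.02. Without wild type replicate 2 the median was -0.07, with 8 rows below 0. Cyc1, the heme-bearing cytochrome c1, had 13.39, 13.40, 13.38 and 13.31 in miR-100 hearts and 13.48, 13.45, 13.75 and 13.40 in wild type hearts. The groups met at 13.40, and the difference of -0.15 (-0.45 to 0.15, limma adjusted p = 0.873) was -0.07 without wild type replicate 3, the highest array. Uqcrfs1, the Rieske iron-sulfur protein, had 15.95 ± 0.06 in miR-100 hearts and 15.87 ± 0.04 in wild type hearts (SD, n = 4 each), the largest difference above 0 in the complex at 0.08.

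Cycs, the mobile cytochrome c that links complexes III and IV, had 18.80, 18.83, 18.81 and 18.83 in miR-100 hearts and 18.78, 18.76, 18.81 and 18.67 in wild type hearts. Wild type replicate 3 lay within the miR-100 range and the other wild type arrays below it, and the difference was 0.06 (-0.22 to 0.34, limma adjusted p = 0.953).

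Complex V had 14 of 17 rows below 0 and 3 above, with a median of -0.045, and each of the 17 intervals lay within 0.5 of 0. Without wild type replicate 2 the median was -0.10, with 13 rows below 0 and 3 above. The catalytic subunit gene Atp5b differed by 0.02. Atp5a1 was listed at 19.58 on all 4 miR-100 arrays and on 3 wild type arrays, with 19.82 on wild type replicate 2, so its row carries little information on a difference. Both were picked for their role after the values were seen. Atp5d, a subunit of the central stalk, had 17.38, 17.40, 17.61 and 17.32 in miR-100 hearts and 17.42, 17.03, 17.42 and 17.43 in wild type hearts. It had the largest difference above 0 in the complex, 0.10, and without wild type replicate 2 this was 0.004.

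The rotor ring of complex V is built from subunit c, which the genes Atp5g1, Atp5g2 and Atp5g3 encode as the same mature protein with different import sequences. Atp5g2 had 15.45, 15.52, 15.60 and 15.32 in miR-100 hearts and 15.63, 15.41, 15.72 and 15.81 in wild type hearts. The ranges overlapped, and the difference was -0.17 (-0.48 to 0.14, limma adjusted p = 0.864). Atp5g1 and Atp5g3 differed by -0.045 and -0.06, and none of the 3 genes passed. Without wild type replicate 2 the difference of Atp5g1 was -0.125 and that of Atp5g2 was -0.25, and without wild type replicate 4 the difference of Atp5g1 was 0.0017.

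Complex IV reduces oxygen to water, and its 19 rows were spread around 0, with 10 above, 8 below, 1 at 0 and a median of 0.005. Without wild type replicate 2 the split was 3 above and 15 below, with a median of -0.03. Cox8c, a testis form of subunit 8, had 5.59 ± 0.31 in miR-100 hearts and 5.80 ± 0.19 in wild type hearts (SD, n = 4 each) and differed by -0.21. Cox7c was listed at 19.93, the highest value in the table, on 7 of 8 arrays, and wild type replicate 2 had 19.88.

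The heart and ubiquitous forms of complex IV subunits were compared pair by pair. Cox6a1, the ubiquitous form of subunit 6a, had 13.09, 13.30, 13.30 and 13.15 in miR-100 hearts and 12.91, 12.98, 12.80 and 12.99 in wild type hearts. All 4 miR-100 arrays lay above all wild type arrays. The difference was 0.29 (standard error 0.14, 95% confidence interval -0.0019 to 0.58), or 1.22-fold, and did not pass (limma adjusted p = 0.653). Groups without overlap and higher in miR-100 hearts were seen in 2 of the 103 rows, Cox6a1 and Cox18, against 2.21% of all rows, and lower ones in 0 of 103, against 2.33%.

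Cox6a2, the heart and skeletal muscle form, had 18.67, 18.75, 18.68 and 18.47 in miR-100 hearts and 18.79, 18.75, 18.78 and 18.81 in wild type hearts. The groups met at 18.75, in replicate 2 of each, and the difference was -0.14 (-0.43 to 0.15, limma adjusted p = 0.878). Heart and ubiquitous form thus had differences of opposite sign.

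The balance of the forms was taken on each array as the log2 signal of the tissue form minus that of the ubiquitous form. Its level has no meaning, since the rows have different probes, and the comparison of groups is read alone. For Cox6a2 minus Cox6a1 it was 5.58, 5.45, 5.38 and 5.32 in miR-100 hearts and 5.88, 5.77, 5.98 and 5.82 in wild type hearts, without overlap. The mean balance was 5.43 ± 0.11 in miR-100 hearts and 5.86 ± 0.09 in wild type hearts (SD, n = 4 each). It differed by -0.43, towards the ubiquitous form in miR-100 hearts.

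With all 70 assignments of the arrays enumerated, the exact permutation test (two-sided) gave p = 0.0286 for this balance, the smallest it can give, and 0.171 after Benjamini-Hochberg adjustment over the 6 pairs tested. It therefore did not pass. A pair that alone reaches the smallest p cannot fall below 0.171 after this adjustment. This test could thus not have passed it and cannot decide whether the balance shifted. With limma on the same balances, which shares the spread over the pairs, the adjusted p was 0.0160, with a 95% confidence interval of -0.66 to -0.20. Without single arrays the difference ran from -0.48 to -0.39, and groups that do not overlap keep their direction in such fits.

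Cox7a1, the heart and skeletal muscle form of subunit 7a, had 17.26, 17.42, 17.37 and 16.95 in miR-100 hearts and 17.51, 17.32, 17.69 and 17.30 in wild type hearts. Its ubiquitous counterpart Cox7a2 had 14.77, 14.78, 14.73 and 14.48 in miR-100 hearts and 14.71, 14.14, 14.73 and 14.71 in wild type hearts. Both ranges overlapped between the groups, with differences of -0.21 for Cox7a1 and 0.12 for Cox7a2.

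The balance of Cox7a1 minus Cox7a2 was 2.49, 2.64, 2.64 and 2.47 in miR-100 hearts and 2.80, 3.18, 2.96 and 2.59 in wild type hearts. It lay lower in miR-100 hearts except that wild type replicate 4 lay among them, with a difference of -0.32 (two-sided exact permutation p = 0.0857, adjusted 0.257). Without wild type replicate 2, in which Cox7a2 was low, it was -0.22. Cox7a2 itself differed by -0.03 without that array.

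**Figure D2:**
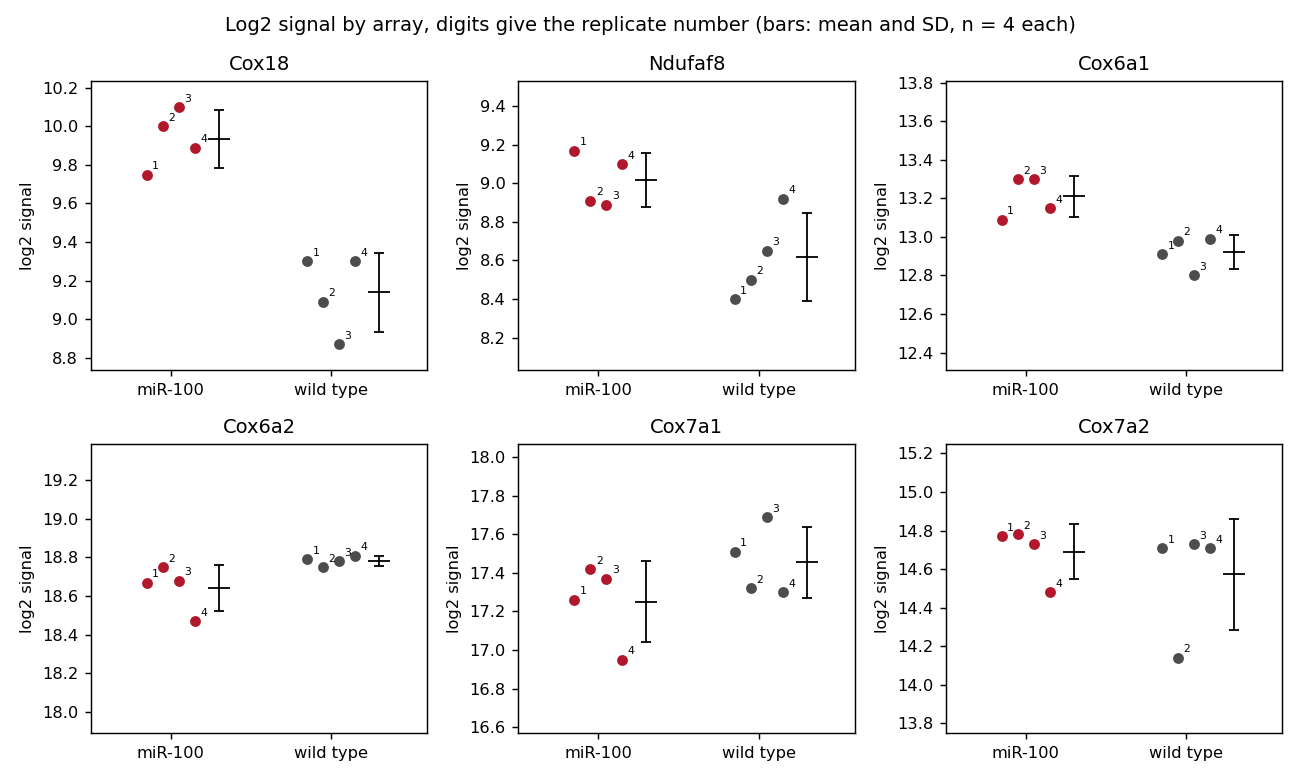
Log2 signal of 6 rows on each array, with miR-100 hearts on the left and wild type hearts on the right of each panel. Points are single arrays with their replicate number, bars are mean and SD (n = 4 each), and all panels span the same range of log2 units. Cox18 and Cox6a1 are the panels in which the groups do not overlap.

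Subunit 8 did not follow this order. Cox8b, the heart and skeletal muscle form, had 15.21, 15.21, 15.16 and 14.59 in miR-100 hearts and 15.09, 14.83, 15.11 and 15.14 in wild type hearts, and its difference was 0.00. The ubiquitous form Cox8a differed by 0.03, and the balance of Cox8b minus Cox8a by -0.03 (two-sided exact permutation p = 0.857, adjusted 0.857). The balance differed by -0.07 without wild type replicate 2. The limma interval over all arrays was -0.32 to 0.26, so it does not show that the forms kept the same balance.

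The other 3 pairs set forms known mainly from other tissues or from low oxygen against the form heart muscle uses. Cox4i2, a form known from lung and low oxygen, had 6.35, 6.04, 6.57 and 5.90 in miR-100 hearts and 5.95, 5.73, 5.78 and 6.94 in wild type hearts. Its partner Cox4i1 differed by -0.01, and their balance by 0.13 (two-sided exact permutation p = 0.83, adjusted 0.857). That balance differed by 0.0025 without wild type replicate 2. The testis form Cox6b2 had 4.47 ± 0.47 in miR-100 hearts and 4.29 ± 0.48 in wild type hearts (SD, n = 4 each).

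Ndufa4l2, a low-oxygen form of the complex IV subunit Ndufa4, differed by 0.04. The balances of Cox6b2 minus Cox6b1 and of Ndufa4l2 minus Ndufa4 differed by 0.17 and 0.12, both with a two-sided exact permutation p = 0.743 and 0.857 when adjusted. They differed by 0.31 and -0.07 without wild type replicate 2. In these 3 pairs the limma intervals reached at least from -0.52 to 0.75, so they could hide shifts as large as that of subunit 6a.

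**Figure D3:**
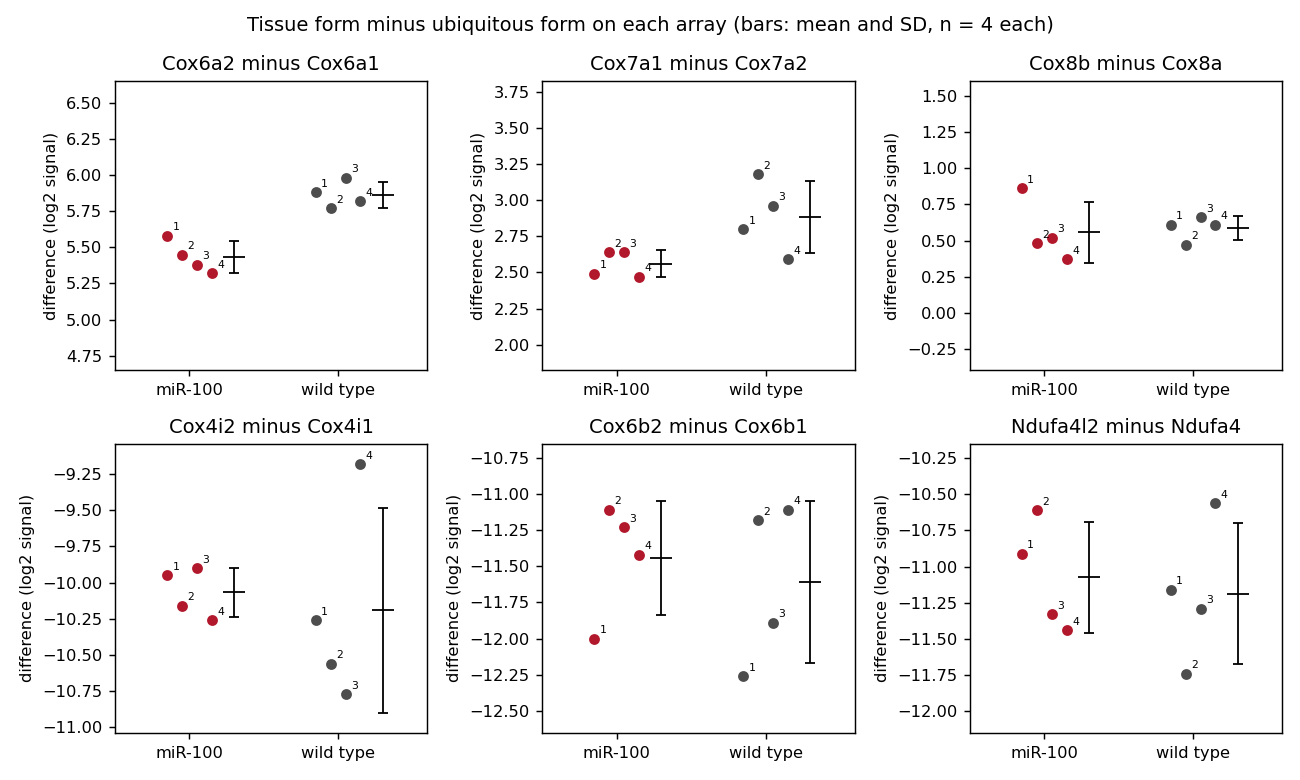
Log2 signal of the tissue form minus that of the ubiquitous form on each array for 6 pairs, with miR-100 hearts on the left and wild type hearts on the right. Points are arrays with their replicate number, bars are mean and SD (n = 4 each), and all panels span the same range of log2 units. The Cox6a2 minus Cox6a1 panel alone has no overlap, with 5.32 to 5.58 in miR-100 hearts and 5.77 to 5.98 in wild type hearts.

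In bulk tissue, fewer cells of a type and less RNA per cell cannot be told apart, and ubiquitous forms are also made by cells other than heart muscle cells. Marker lists of those cells are given beside the Cox6a result as log2 of the summed signal. Endothelial markers (8 genes) summed to 15.54 to 15.73 in miR-100 hearts and 15.55 to 15.66 in wild type hearts, and fibroblast markers (7 genes) to 17.84 to 18.04 and 17.78 to 17.97 in the same order. Smooth muscle and pericyte markers (8 genes) had 16.33 to 16.69 in miR-100 hearts and 16.24 to 16.46 in wild type hearts, and macrophage markers (8 genes) 12.02 to 12.29 and 11.85 to 12.63.

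These 4 sums overlapped between the groups, as did the skeletal muscle markers (9 genes, 13.53 to 14.46 in miR-100 hearts and 13.25 to 14.31 in wild type hearts), brown fat markers (8 genes, 16.92 to 17.43 and 16.97 to 17.88 in the same order) and 2 red cell markers (7.75 to 8.50 and 7.68 to 8.55). Atrial markers (6 genes) did not, with 18.07 to 18.76 in miR-100 hearts and 17.04 to 17.54 in wild type hearts, a sum in which Nppa held at least 99.7% on every array. Nppa differed by 1.04 (limma adjusted p = 0.0616), while the defining atrial genes Myl7 and Bmp10 had means below the 25th percentile of row means. The skeletal muscle genes Myh4, Mylpf and Myog and the fat genes Adipoq, Elovl3, Lep, Plin1 and Ucp1 were below that percentile too. Other sums also followed 1 gene. Fabp4 held 99.1% to 99.5% of the brown fat sum, Acta1 97.4% to 98.8% of the skeletal muscle sum and Dcn 92.9% to 94.9% of the fibroblast sum. Slc4a1 held 76.2% to 90.5% of the red cell sum. Abcc9 held 45.2% to 61.6% of the smooth muscle and pericyte sum and Mrc1 37.3% to 50.0% of the macrophage sum. These sums thus say little of the other markers, and their overlap does not show that the cells were equally frequent.

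Of all 66 markers, heart muscle included, 0 passed (limma, Benjamini-Hochberg over all rows), and 10 had an unadjusted p under 0.05, 15.2% against 7.73% of all rows. Of the 10, 6 were higher in miR-100 hearts and 4 lower. The higher ones were Nppa, Acta2 of smooth muscle by 1.11, Tnni2 of skeletal muscle by 0.55, Cldn5 of endothelium by 0.55, Adipoq of fat by 0.43 and Mybpc3 of heart muscle by 0.40. The lower ones were Lyve1 of macrophages with -0.64, Mylpf of skeletal muscle with -0.47, Dkk3 of the atrial list with -0.40 and Kcnj8 of pericytes with -0.31, and Mylpf, Dkk3 and Kcnj8 are named after their values were seen. Within the lists signs were mixed, with 4 of 8 endothelial, 4 of 8 smooth muscle and pericyte, 3 of 7 fibroblast and 3 of 8 macrophage markers above 0. The part of these cells in the Cox6a result was not tested.

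Promoters of 5 genes of the subunit 6a, 7a and 8 pairs are shown so that their letters can be compared. The muscle form Cox6a2 is not among them. Each is the 250 bases before the start in RefSeq on GRCm38.p6, printed 5′ to 3′ on the gene's strand. Capitals mark matches on either strand to the NRF1 motif, CCGGAAG (ETS factors such as GABP) or CANNTG (E-box, bound by many factors of muscle). The positions are chr5:115348959-115349208 minus for Cox6a1, chr9:79759854-79760103 minus for Cox7a2, chr19:7217617-7217866 minus for Cox8a, chr7:30183921-30184170 plus for Cox7a1 and chr7:140900447-140900696 minus for Cox8b.
Cox6a1: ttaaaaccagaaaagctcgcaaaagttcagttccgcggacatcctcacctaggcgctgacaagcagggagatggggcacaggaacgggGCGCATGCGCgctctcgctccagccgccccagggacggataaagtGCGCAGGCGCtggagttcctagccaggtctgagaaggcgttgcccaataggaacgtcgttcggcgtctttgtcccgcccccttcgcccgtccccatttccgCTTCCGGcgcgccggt
Cox7a2: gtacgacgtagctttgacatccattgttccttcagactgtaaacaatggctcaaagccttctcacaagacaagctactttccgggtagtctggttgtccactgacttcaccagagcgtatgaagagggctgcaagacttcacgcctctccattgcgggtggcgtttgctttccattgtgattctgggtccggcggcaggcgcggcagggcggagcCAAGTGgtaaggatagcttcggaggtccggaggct
Cox8a: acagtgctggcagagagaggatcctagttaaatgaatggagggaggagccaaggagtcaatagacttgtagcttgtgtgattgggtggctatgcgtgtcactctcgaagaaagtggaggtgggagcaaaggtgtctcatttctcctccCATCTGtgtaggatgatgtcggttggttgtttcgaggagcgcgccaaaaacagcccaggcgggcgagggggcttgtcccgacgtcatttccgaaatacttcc
Cox7a1: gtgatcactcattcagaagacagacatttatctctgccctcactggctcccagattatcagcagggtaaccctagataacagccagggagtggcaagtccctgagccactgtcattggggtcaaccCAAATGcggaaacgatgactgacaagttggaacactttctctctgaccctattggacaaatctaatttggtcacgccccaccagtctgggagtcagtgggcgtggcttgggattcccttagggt
Cox8b: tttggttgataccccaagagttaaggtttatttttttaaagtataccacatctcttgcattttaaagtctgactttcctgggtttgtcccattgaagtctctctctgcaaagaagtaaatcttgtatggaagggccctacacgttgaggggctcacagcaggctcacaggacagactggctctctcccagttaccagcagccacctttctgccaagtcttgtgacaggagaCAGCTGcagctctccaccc

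The Cox6a1 window held 2 NRF1 matches and 1 ETS match that do not overlap each other, and no E-box. The windows of Cox7a2, Cox8a, Cox7a1 and Cox8b each held 1 E-box match and neither of the other motifs. Their GC content was 62.8% for Cox6a1, 54.8% for Cox7a2, 52.8% for Cox8a, 51.2% for Cox7a1 and 47.2% for Cox8b.

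Of the 103 genes, 84 had promoters in the table, 89 windows in all. The NRF1 motif was in 15 of the 89 windows, 16.9%, against 3.74% of all 32851 windows of this length. The ETS letters were in 18.0% against 6.91%, the E-box in 61.8% against 66.2%, the ERR letters AAGGTCA in 5.62% against 4.08%, and the MEF2 motif in 0 of 89 against 1.69%. Median GC content was 57.6% for the members and 52.4% for all windows. A match describes the letters of these windows and no binding.

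Among assembly and accessory factors, Cox18 had the lowest p of all members. It encodes an inner membrane insertase that moves part of the complex IV subunit made from mitochondrial DNA, Cox2, across the membrane. It had 9.75, 10, 10.10 and 9.89 in miR-100 hearts and 9.30, 9.09, 8.87 and 9.30 in wild type hearts. The groups stood well apart, at 9.94 ± 0.15 and 9.14 ± 0.21 (SD, n = 4 each) in the same order.

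The difference of Cox18 was 0.80 (standard error 0.15, 95% confidence interval 0.46 to 1.13), or 1.74-fold, with a limma adjusted p of 0.0749 over all rows, so it did not pass. With an intensity trend in the moderation the adjusted p was 0.0353, and Cox18 was then the 1 member called of 65 rows called in all. Without single arrays the difference ran from 0.705 to 0.857 and the limma adjusted p from 0.107 to 0.213.

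Ndufaf8, an assembly factor of complex I known from human cells, had 9.17, 8.91, 8.89 and 9.10 in miR-100 hearts and 8.40, 8.50, 8.65 and 8.92 in wild type hearts. Wild type replicate 4 lay within the miR-100 range and the other wild type arrays below it. The difference was 0.40 (0.06 to 0.74, limma adjusted p = 0.528).

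Other factors lay close to 0. Of the 17 rows 12 were above 0 and 5 below, with a median of 0.055. Cox10 and Cox15, which make heme A for complex IV, differed by 0.05 and -0.055, and the copper chaperone Cox17 by 0.10. Cox20, a chaperone of the same Cox2 subunit that Cox18 handles, differed by 0.04 (-0.31 to 0.39). These 4 genes were picked for their role after the values were seen, and among these 17 rows an unadjusted p under 0.05 was found for Cox18 and Ndufaf8 alone.

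Cox7a2l is a relative of subunit 7a described as joining complexes III and IV into supercomplexes, which were not measured here. Cox7a2l had 12.25, 12.66, 12.54 and 12.39 in miR-100 hearts and 12.84, 11.72, 12.76 and 12.77 in wild type hearts. Wild type replicate 2 was 1.07 below the mean of the other wild type arrays. The difference was -0.06 over all arrays and -0.33 without that array (limma adjusted p = 0.977 and 0.604).

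The low values of wild type replicate 2 ran through much of the chain. It was the lowest of the 4 wild type arrays in 54 of the 103 rows, 52.4%, against 27.2% of all rows. By complex that held for 18 of 36 rows of complex I, 1 of 4 of complex II, 3 of 9 of complex III, 11 of 19 of complex IV, 14 of 17 of complex V and 7 of 17 factors. The median gap of this array to the mean of the other wild type arrays was -0.13 over the members and 0.00 over all rows.

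The gap was widest for Cox7a2l at -1.07, followed by Ndufv3 at -0.97, the assembly factor Ndufaf1 at -0.85, and the membrane arm subunits Ndufb7, Ndufb10 and Ndufb8 at -0.80, -0.70 and -0.68, all named after their values were seen. Among miR-100 arrays, replicate 4 was the lowest in 43 of 103 rows and replicate 2 the highest in 41, with median gaps of -0.04 and 0.06. What moved these arrays was not tested.

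Leaving out wild type replicate 2 turned more of the chain below 0. The split was then 32 rows above 0 and 69 below, 67.0% below against 52.6% of all rows, with a median of -0.03. Complex I had 10 above and 26 below, complex III 1 and 8, and complex V 3 and 13. With that array left out, 0 of the 103 rows passed, and 4 had an unadjusted p under 0.05, 2 higher and 2 lower, which is 3.88% against 8.22% of all rows in the same fit. Leaving out wild type replicate 4, the highest wild type array in 43 rows, turned the split the other way. It was then 56 rows above 0 and 47 below, 45.6% below against 53.4% of all rows, with a median of 0.02. Without single miR-100 arrays, 41 to 50 rows lay above 0 and 52 to 62 below, with 42 and 61 without replicate 2. In these fits 50.5% to 60.2% of the chain lay below 0, against 52.7% to 53.3% of all rows. The sign of small differences in the chain thus depended on which array was left out.

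**Figure D4:**
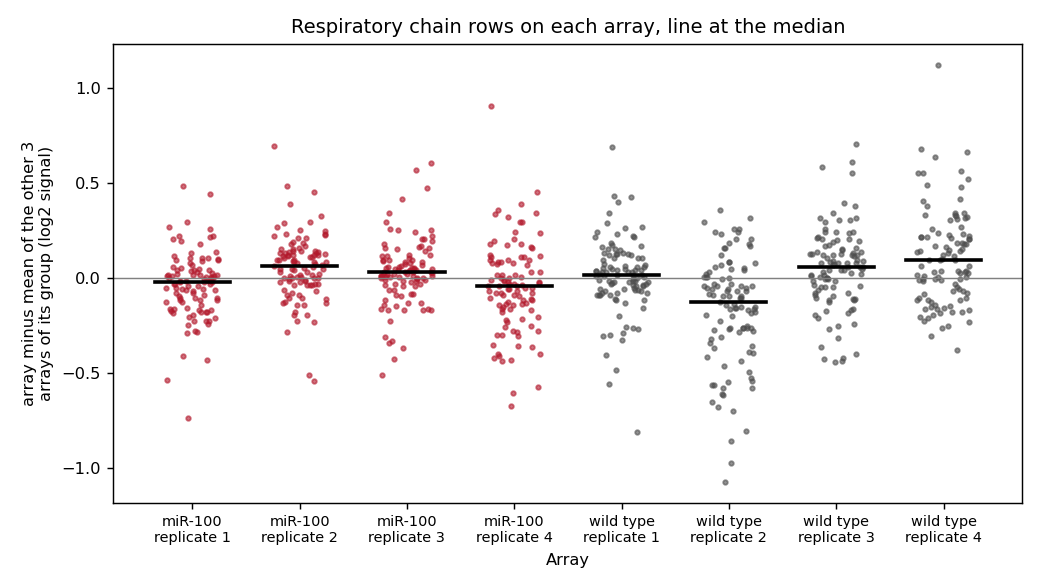
Log2 signal of each of the 103 rows on an array minus its mean on the other 3 arrays of the same group, with 4 miR-100 arrays on the left and 4 wild type arrays on the right. Points are rows and the black line is the median. Wild type replicate 2 has the lowest median, -0.13, and wild type replicate 4 the highest, 0.09.

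Genes that work with the chain were read from lists drawn up by role, and no measured gene of the 4 lists with rows passed (limma, Benjamini-Hochberg over all rows). The 13 subunits made from mitochondrial DNA had 0 rows and are not analysed here. Of 41 other assembly factors, 20 were above 0 and 21 below, with a median of -0.01. Taco1, an activator of mitochondrial translation of the complex IV subunit Cox1, had the lowest p among them, at 11.62 ± 0.25 in miR-100 hearts and 11.18 ± 0.28 in wild type hearts (SD, n = 4 each), and differed by 0.44 (limma adjusted p = 0.568).

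Of 29 regulators of mitochondrial biogenesis, 13 were above 0 and 16 below, with a median of -0.05. Ppara, a nuclear receptor for fatty acids, had the lowest p, at 9.83 ± 0.41 in miR-100 hearts and 10.37 ± 0.34 in wild type hearts (SD, n = 4 each), and differed by -0.54 (limma adjusted p = 0.568). Of 17 genes of electron entry and coenzyme Q synthesis, 9 were above 0 and 8 below. The lowest p there was that of Coq10b, a coenzyme Q binding protein, which differed by -0.43 without overlap of the groups (limma adjusted p = 0.501). Of the 17 genes, 2 including Coq10b were lower without overlap, against 2.33% of all rows, and 0 were higher, against 2.21%.

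Of 11 carriers and energy transfer genes, 8 were above 0 and 3 below. Slc25a5, the adenine nucleotide translocase made in most tissues, had 16.61, 16.69, 16.84 and 16.85 in miR-100 hearts and 16.56, 15.93, 16.33 and 16.19 in wild type hearts. The groups did not overlap, and the difference was 0.50 (0.15 to 0.84, limma adjusted p = 0.400). Of the 11 genes, 2 including Slc25a5 were higher without overlap, against 2.21% of all rows, and 0 were lower, against 2.33%. Slc25a4, the heart and muscle translocase, was named after its values were seen and lay between 19.71 and 19.77 on all arrays, near the ceiling, with a difference of 0.01.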

How the data were processed

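The deposited table holds a log2 signal for each transcript cluster and array. Per the submitters' processing notes, the authors used Transcriptome Analysis Console 4.0. RNA was labelled with the Affymetrix WT Plus kit, per the labels' protocols. Summarization, normalization method and genome build are not given in the sources used here. Column medians lay between 5.70 and 5.74, so the arrays shared a scale, and values ran from 2.29 to 19.93 with 2 decimals. The number of arrays limits the precision.

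The platform annotation gave 19572 of 22206 rows 1 symbol, 0 several and 2634 none. All 103 member genes matched a RefSeq table of GRCm38.p6, and 0 symbols changed. Values were tested untransformed and unfiltered with limma 3.58.1 in R 4.3.3, miR-100 minus wild type, without covariates, and adjusted by Benjamini-Hochberg over all rows at 0.05. Isoform balances were tested by exact permutation of the arrays, two-sided. For lists, the row with the highest mean stood for a gene.

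Members, lists and tests were chosen with earlier results of these data known. Text names the 10 members of lowest p, the largest rise and fall of each complex, the isoform pairs, complex II, Cycs and Cyc1, and the member of lowest p of each other list. The fit was run on simulated data with planted differences and independent errors. That run does not show its power for differences as small as most of those in the chain. Alternatives are moderation, array weights, normalization, row filters, a replicate block and leaving out each array.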

Additional observations from a re-analysis of the deposited data

Results flagged for a closer look

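An array stood far from the other 3 of its group in 15 of 134 groups of values tested, by Dixon's test at the 95% level, which flags about 5% of groups by chance. The groups include rows named after their values were seen, Ndufaf1 for its gap on wild type replicate 2, so the count cannot be set against that share. For Cox7c, Slc25a4, Atp5a1 and Atp5b the other 3 values were the same at 2 decimals, so any gap is flagged. Wild type replicate 2 was low for Atp5d (17.03, others 17.42 to 17.43), Cox7a2 (14.14, others 14.71 to 14.73), Cox7a2l (11.72, others 12.76 to 12.84), Cox8b (14.83, others 15.09 to 15.14) and Ndufaf1 (9.07, others 9.87 to 10.01). The same array was low by a small amount for Cox7c (19.88, others 19.93) and Slc25a4 (19.71, others 19.76) near the ceiling, and high for Atp5a1 (19.82, others 19.58).

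On miR-100 replicate 4, Cox7a2 (14.48, others 14.73 to 14.78) and Cox8b (14.59, others 15.16 to 15.21) were low and Sdhc (14.85, others 14.39 to 14.42) was high. On miR-100 replicate 3, Ndufv3 was low (8.76, others 9.08 to 9.10) and Atp5b high (19.69, others 19.66). Wild type replicate 1 was low for Ndufv1 (17.42, others 17.50 to 17.51) and high for Coq10b (10.64, others 10.20 to 10.24).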

How the results depend on the processing

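The count of respiratory chain rows past the threshold was 0 in limma in 16 of 17 alternatives, among them each fit without an array, quantile normalization and, chosen after seeing the data, leaving out rows near the ceiling, and 1 (Cox18) with an intensity trend. Over all rows the count was 65 with the trend and 11 to 27 in the fits without an array, with 12 without miR-100 replicate 1, 11 without miR-100 replicate 3 or 4, and 15 without wild type replicate 2 or 3. Fewer arrays enter these fits. Replicate numbers are shared by the groups, but the deviations of same-numbered arrays correlated at -0.06 to 0.07. This shows no shared replicate effect over all rows, and the labels do not say whether the numbers pair mice. With a replicate block 0 members and 21 rows in all passed. The median differences of the complexes moved by less than the spread between arrays in all 13 alternatives each. That bound is loose, since leaving out an array moves a group mean by only a part of this spread. The replicate block and the filter on dim rows could not have moved the medians, since the groups are balanced over replicates and no member was dim. The bound therefore does not show that the medians were stable. Without single arrays they ran from -0.1 to -0.0192 for complex V, -0.0267 to 0.0308 for complex IV and -0.0037 to 0.0675 for complex II. The Cox6a2 to Cox6a1 balance passed with limma on the balances (-0.43, adjusted p = 0.0160) and not with a replicate block, which cannot give an exact p below 0.125.

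Signs near 0 turned, and the cause was not tested. Without single arrays the balance ran from -0.0675 to 0.4625 for Cox4i2, -0.0467 to 0.3567 for Cox6b2, -0.1308 to 0.0325 for Cox8b and -0.0692 to 0.3242 for Ndufa4l2, which was -0.0145 with quantile normalization. The differences ran from -0.0725 to 0.0758 for Cox4i1, -0.0083 to 0.395 for Cox4i2, -0.06 to 0.075 for Cox6b1, -0.0267 to 0.3583 for Cox6b2, -0.0267 to 0.1875 for Cox7a2, -0.33 to 0.0433 for Cox7a2l, -0.0517 to 0.1183 for Cox8a, -0.1158 to 0.2075 for Ndufa4l2, -0.0708 to 0.0892 for Sdha, -0.0208 to 0.0692 for Sdhb, -0.16 to 0.0325 for Sdhc, -0.125 to 0.0017 for Atp5g1, -0.1558 to 0.0508 for Cox15, -0.0458 to 0.1175 for Cox20, -0.2633 to 0.0967 for Ndufaf1, -0.2108 to 0.1358 for Ndufb7, -0.0025 to 0.0842 for Ndufs1 and -0.0617 to 0.0142 for Uqcrb. With quantile normalization Ndufa4 was 0.0442 and Atp5b -0.0006, and with array weights Cox6b1 was -0.0056. Among the other named genes, the difference of Nppa passed with the trend (limma adjusted p = 0.00488) and a replicate block (0.0466), and the difference of Acta2 without miR-100 replicate 4 (0.0442). No alternative lost a call, since 0 of the 61 named rows passed.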
